A study of Mus musculus with 40 samples.

Results

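The caveolins and cavins of gonadal white adipose tissue were followed across 40 male mice. The set held 6 genes, the caveolins Cav1 and Cav2, the cavins Cavin1 (also Ptrf), Cavin2 (also Sdpr) and Cavin3 (also Prkcdbp), and the ATPase gene Ehd2, and its members were every probe that the platform annotation gave to these symbols. The array held 8 such probes among 25697, and 7 of them, covering all 6 genes, were among the 14244 probes of 9795 genes that passed the filter on dim probes. Choosing the genes used no measured value, although the set was proposed with earlier results of these arrays known.

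Caveolae are small flask-shaped pits of the plasma membrane that are unusually dense on fat cells and on the endothelial cells of blood vessels. Caveolins are hairpin proteins that sit in the inner leaflet of the pit, cavins form a coat around it, and EHD2 is an ATPase that gathers at its neck and holds it at the cell surface. Loss of caveolin-1 or of cavin-1 leaves mice lean and people with lipodystrophy, and the pits flatten when the membrane is stretched, so these genes are of interest where fat cells fill and grow.

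The study asked whether what a dam eats leaves a trace in the tissues of its adult offspring. Dams ate a low fat, high carbohydrate diet (LF) or a high fat diet (HF), both with coconut oil as the main fat, from before mating until weaning, and their male C57BL/6J offspring, an inbred laboratory strain, then ate LF or HF until they were killed at 9 weeks of age after a fast. RNA of each gonadal pad was measured on 1 Illumina bead array, which gives 1 intensity per probe. With the maternal diet named first, the groups were LL (LF fed dams, LF fed offspring), LH (LF fed dams, HF fed offspring), HL (HF fed dams, LF fed offspring) and HH (HF on both sides), with 10 animals each. The labels placed these animals in 12 cages, 6 per maternal diet, and name no litter or dam. The methods mated more than 1 female per cage, so animals of a cage need not be littermates, yet they are not independent. Only cages 4 and 11 (LF fed dams) and 10, 20 and 23 (HF fed dams) held both post-weaning diets.

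The stretches of genome just before these genes are shown first, since members whose values followed each other over the 40 arrays had start regions of unlike composition. Of the 6 genes, 5 had an entry in the RefSeq promoter table of build GRCm38.p6 (Cavin3 had none). Each line gives the 250 bases before the annotated start, read 5′ to 3′ on the strand of the gene. Capitals mark matches on either strand to motifs that do not overlap here. The GC box was searched as GGGCGG. The CCAAT box was searched by the letters of its name. The TATA motif was searched as TATAAA, and a nuclear receptor half-site as AGGTCA.
Cav1: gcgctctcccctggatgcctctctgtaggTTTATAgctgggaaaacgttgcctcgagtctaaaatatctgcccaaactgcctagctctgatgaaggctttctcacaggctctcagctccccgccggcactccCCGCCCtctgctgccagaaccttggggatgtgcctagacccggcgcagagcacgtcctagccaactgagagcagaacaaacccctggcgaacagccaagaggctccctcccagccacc
Cav2: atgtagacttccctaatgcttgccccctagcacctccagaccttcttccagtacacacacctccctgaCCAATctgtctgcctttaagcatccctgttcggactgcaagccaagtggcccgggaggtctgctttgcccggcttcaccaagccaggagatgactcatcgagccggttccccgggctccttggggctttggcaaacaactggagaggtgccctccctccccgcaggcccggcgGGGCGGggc
Cavin1: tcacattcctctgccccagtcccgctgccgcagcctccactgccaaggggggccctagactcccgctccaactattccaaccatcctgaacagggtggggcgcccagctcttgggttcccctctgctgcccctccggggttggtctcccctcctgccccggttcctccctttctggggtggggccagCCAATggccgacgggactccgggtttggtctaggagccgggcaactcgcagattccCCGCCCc
Cavin2: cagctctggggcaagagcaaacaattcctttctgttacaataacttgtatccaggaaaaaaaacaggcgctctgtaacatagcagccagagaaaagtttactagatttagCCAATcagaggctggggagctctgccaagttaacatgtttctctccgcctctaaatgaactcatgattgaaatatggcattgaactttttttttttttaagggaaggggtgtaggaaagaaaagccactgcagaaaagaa
Ehd2: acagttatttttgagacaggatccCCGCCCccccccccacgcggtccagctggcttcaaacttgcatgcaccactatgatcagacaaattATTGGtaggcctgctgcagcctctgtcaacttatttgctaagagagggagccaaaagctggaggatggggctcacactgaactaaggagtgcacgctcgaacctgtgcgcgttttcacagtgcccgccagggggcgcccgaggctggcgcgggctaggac
The windows lie at chr6:17306085-17306334 on the plus strand (Cav1, the first of 2 entries), chr6:17280935-17281184 on the plus strand (Cav2), chr11:100970618-100970867 on the minus strand (Cavin1, the first of 2 entries), chr1:51288876-51289125 on the plus strand (Cavin2) and chr7:15967536-15967785 on the minus strand (Ehd2). Cav1 and Cav2 are neighbours on chromosome 6 and read in the same direction.

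The Cavin1 window held 67.6% G and C, that of Cav2 62.0%, Cav1 59.6% and Ehd2 58.0%, above the median of 52.4% over all 32851 windows of the table, while that of Cavin2 held 40.4%. In the windows printed, a GC box was found before Cav1, Cav2, Cavin1 and Ehd2 but not before Cavin2, and 32.7% of all windows hold one. The window of the second Cav1 entry, not printed, held no GC box. A CCAAT box was found before Cav2, Cavin1, Cavin2 and Ehd2 but not before Cav1, against 33.8% of all windows. The Cavin1 window had its CCAAT box 58 bases from the start and its GC box 1 base from it. The only TATA box letters were those of the first Cav1 entry, 215 bases before its start, and 12.4% of all windows have them. The second Cav1 entry had none. None of the 5 windows held the half-site letters, which 14.0% of all windows hold. A match describes the letters and is not evidence of a bound site.

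The pads carried the markers of their label. Adipoq, which codes for the fat cell hormone adiponectin, lay between 11332 and 31669 intensity units over the 40 arrays, and Plin1, which codes for a coat protein of lipid droplets, between 198 and 1243 units. Each array's background, the 95th percentile of probes for odorant receptors, was 78.09 to 94.3 units. The arrays resembled one another with a median mean correlation of 0.951, and 5 stood apart below a limit of 0.926 (3 median absolute deviations). They belonged to animals 1 and 4 of LL and animals 2, 6 and 8 of HL, all LF fed, and each of the 3 HF dam cages with both diets held 1 of them. On these 5 arrays all 13 tested genes of a fat cell list were lower than on the other 35 (median log2 difference of -1.62), as were all 11 of an endothelial list (-1.24) and all 8 of a macrophage list (-1.11), while all 8 testis genes (4.11) and all 5 epididymis and seminal vesicle genes (6.2) were higher. Other lists were mixed. Lower were 7 of 9 fibroblast genes (-0.83), 5 of 8 mesothelial genes (-1.11) and 5 of 6 skeletal muscle genes (-0.58). Of the smooth muscle and pericyte genes 3 of 8 were lower (0.39), and of the intestine genes 0 of 2 (0.77). Among all 14244 probes kept, 9366 were lower (median -0.15). Differences and slopes of the caveola probes that involve LF fed animals are therefore given with and without these arrays.

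Every caveola probe that passed the filter was above background on all 40 arrays. The Cav1 probe was among the brightest of the array, at ranks 9 to 139 of the 25697 intensities, and quantile normalization ties its values there. The dimmer of the Cav2 probes read 54.2 to 78.9 units and was above background on 0 arrays, so Cav2 is described by its brighter probe. Probes differ in how well they bind, so no level is set against that of another gene here. The muscle members of the families stayed near background: the Cav3 probe was above it on 2 arrays (54.2 to 99.3 units) and that of Cavin4 on 16 (67.6 to 273 units), and neither was tested.

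All 6 genes read lower on the 5 arrays that stood apart. Cav1, the caveolin without which fat cells form no caveolae, read 10185 and 10533 units on the LL arrays and 10995, 10770 and 9901 on the HL arrays, against 19182 to 33228 on the other 35. Cav2, its partner in mixed oligomers, read 887 to 1276 units on the 5 and 1929 to 4046 on the rest. The difference was 2.42-fold for Cav1 and 3.1-fold for Cav2 between geometric means.

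Cavin1, the coat protein needed to form caveolae, read 118 to 225 units on the 5 arrays and 259 to 743 on the others (2.89-fold). Cavin2, which bends the membrane, read 2344 to 2887 against 5253 to 10094 units (3.02-fold). Cavin3, which binds protein kinase C delta, read 1261 to 2164 against 2682 to 8924 units at its brighter probe (3.13-fold) and 309 to 731 against 720 to 2980 units at its dimmer probe (3.01-fold). Ehd2 read 151 to 249 against 362 to 784 units (3.21-fold). In 6 of the 7 probes the 5 arrays lay below all others, and in the dimmer Cavin3 probe 1 other array reached into their range. Of all probes tested, 10.6% (1504) lay below the other 35 in that way, and 1.64% lay above them. The arrays were set apart by their correlation over all probes, these included, so the values describe them and were not tested. In a whole pad, fewer cells of a type and less RNA per cell cannot be told apart, and the part of the testis and epididymis transcripts in these values was not tested.

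**Figure D1:**
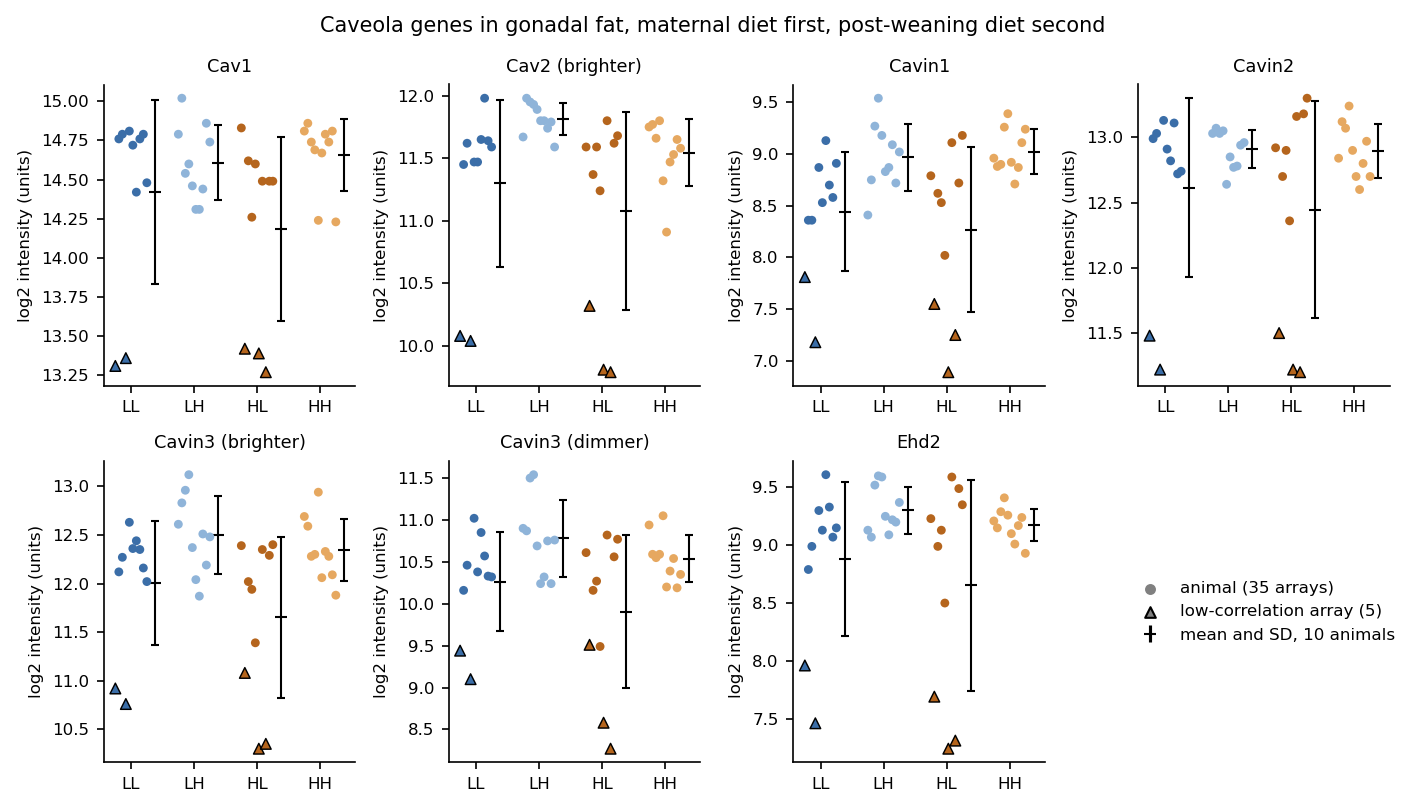
Log2 intensity of the 7 caveola probes in the 4 diet groups, with 1 point per animal (10 per group), triangles for the 5 arrays of low correlation, and bars for the mean ± SD of a group. The triangles, 2 in LL and 3 in HL, lie at the foot of each panel, and the other animals of the 4 groups overlap.

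Among the caveolins, Cav1 had its lowest, median and highest values at 10185, 27344 and 28766 units in LL, 20262, 24284 and 33228 in LH, 9901, 23061 and 29219 in HL, and 19182, 27308 and 29782 in HH. The order of the medians was LL, HH, LH and HL, and all 4 ranges overlapped. Without the 5 arrays the LL animals began at 21973 units and the HL animals at 19597. Cav2 had its lowest, median and highest values at 1052, 2965 and 4040 units in LL, 3092, 3560 and 4046 in LH, 887, 2857 and 3578 in HL, and 1929, 3135 and 3556 in HH. LH had the highest median and the narrowest range, and without the 5 arrays LL ran from 2805 and HL from 2423 units.

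Among the cavins, Cavin1 ran over 145, 376 and 562 units (lowest, median, highest) in LL, 340, 494 and 743 in LH, 118, 381 and 582 in HL, and 420, 490 and 670 in HH. HF fed groups had the higher medians on either maternal diet, yet each overlapped its LF fed counterpart. Cavin2 ran over 2390, 7452 and 8965 units in LL, 6398, 7914 and 8579 in LH, 2344, 7144 and 10094 in HL, and 6206, 7471 and 9689 in HH, and its single highest animal was LF fed. Cavin3 ran over 1738, 4748 and 6338 units in LL, 3732, 5757 and 8924 in LH, 1261, 4042 and 5389 in HL, and 3758, 5021 and 7875 in HH at its brighter probe. Its dimmer probe gave medians of 1311, 1732, 1189 and 1496 units in the same order of groups, with the same ranking. Ehd2 ran over 176, 550 and 784 units in LL, 536, 601 and 778 in LH, 151, 534 and 772 in HL, and 487, 583 and 682 in HH. For every caveola probe that passed the filter, the medians of the groups spread less than the animals of any one group did.

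The post-weaning diet was compared within each maternal diet. In offspring of HF fed dams all 7 probes had higher means after HF feeding (HH against HL), by 0.45 to 0.76 on the log2 scale, and 0 of 7 passed the test over all probes (limma, adjusted p 0.172 to 0.361, where 0.512% of all probes were called), while 4 of 7 had an unadjusted p under 0.05 against 16.9% of all probes. Cavin1 differed most, by 0.76 (SE 0.25, 95% interval 0.24 to 1.27, adjusted p = 0.172, limma), and 10 of 10 HH animals lay above the HL median. Cavin3 followed with 0.69 (SE 0.26, interval 0.15 to 1.24) at its brighter and 0.64 (SE 0.28) at its dimmer probe. Cav1 differed by 0.47 (interval 0.07 to 0.87), Cav2 by 0.46 (-0.06 to 0.98), Cavin2 by 0.45 (-0.08 to 0.98) and Ehd2 by 0.52 (-0.05 to 1.1).

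Without the 3 HL arrays of low correlation these differences shrank to between -0.04 and 0.31. Cavin1 kept the largest, 0.31 (interval 0.02 to 0.61, adjusted p = 0.374, limma), with 9 of 10 HH animals above the HL median. The values of Cav2 (-0.01), Cavin2 (-0.04) and Ehd2 (-0.01) then lay close to 0, with intervals that reached from -0.29 to 0.25. Among all probes 1.36% were called on these 17 arrays, and none of the 7 was, with 1 of 7 at an unadjusted p under 0.05 against 11.8% of all.

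Cages with both diets allowed the same comparison among animals of the same cage. In cages 10, 20 and 23 all 7 probes were higher in the HF fed animals, by 0.6 to 1.29 for Cav1 and 0.95 to 2.09 for the brighter Cavin3 probe (log2), and in each cage the LF side held 1 array of low correlation, in cage 20 as its only one. A fit with the cage as a fixed block called 2 of 7 probes, both of Cavin3 (1.29, adjusted p = 0.0405 and 1.27, adjusted p = 0.0473, limma, 3.31% of all probes called). With the arrays of low correlation left out the block gave 0.15 to 0.45 and 0 of 7 called (adjusted p of 1.0, limma), with 0.0772% of all probes called and 0 of 7 at an unadjusted p under 0.05 against 4.72% of all. Cage 20 then had no LF fed animal, so these differences rested on cage 10 (1 LF and 1 HF fed animal) and cage 23 (2 and 3). The brighter Cavin3 probe then differed by 0.29 in cage 10 and 0.52 in cage 23.

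In offspring of LF fed dams (LH against LL) all 7 probes also had higher means after HF feeding, by 0.19 to 0.52, and 0 of 7 were called (adjusted p 0.283 to 0.687, limma, 0.218% of all probes called), with 4 of 7 at an unadjusted p under 0.05 against 12.8% of all. Cavin1 differed by 0.52 (interval 0.11 to 0.94), Cav2 by 0.51 (0.09 to 0.94), Cavin3 by 0.49 (0.03 to 0.96) and 0.52 (0.05 to 0.98) at its probes, and Cav1 by 0.19 (-0.21 to 0.58). All 10 LH animals were above the LL median of Cav2. Without the 2 LL arrays of low correlation the range was -0.09 to 0.29, and 0 of 7 were called (0.421% of all), with 2 of 7 at an unadjusted p under 0.05 against 12.5% of all. Cav2 was then 0.2 higher (SE 0.07, interval 0.06 to 0.35, adjusted p = 0.243, limma) and Cavin1 0.29 higher (interval 0.0 to 0.57), while Cav1 was 0.09 lower (-0.28 to 0.11). Within cage 11, which held no array of low correlation, the 7 differences were 0.05 to 0.3, and in cage 4 Cav1 turned from 0.27 to -0.2 once its low array was left out.

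The maternal diet was compared within each post-weaning diet. In LF fed offspring (HL against LL) all 7 probes had lower means with HF fed dams (-0.36 to -0.17 on the log2 scale), with wide intervals such as -0.75 to 0.29 for Cav1. None was called (adjusted p of 1.0, limma, 0.0% of all probes called), and 0 of 7 had an unadjusted p under 0.05 against 1.08% of all. Without the 5 arrays the range was -0.18 to 0.03, still with none called (0.0% of all probes) and 0 of 7 at an unadjusted p under 0.05 against 4.21% of all.

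In HF fed offspring (HH against LH), which held none of the 5 arrays, the 7 differences ran from -0.27 to 0.06 and 0 were called (adjusted p 0.241 to 0.938, limma, 0.0% of all probes). The 1 probe with an unadjusted p under 0.05, against 12.5% of all probes, was that of Cav2, lower in HH by 0.27 (-0.27, SE 0.09, interval -0.46 to -0.08, adjusted p = 0.241), and 0 of 10 HH animals reached the LH median. The 3 HH animals of cage 20 read 2563, 1929 and 2835 units, and without that cage the difference was -0.14 (adjusted p = 0.431, limma). Cav1 (0.05, interval -0.16 to 0.26), Cavin1 (0.06, -0.19 to 0.3) and Cavin2 (-0.02, -0.18 to 0.15) had intervals that spanned 0. Transcripts of other tissues were uneven among these animals. The mean log2 level of the testis list reached 9.25 in HH and 10.45 in LH, and that of the epididymis and seminal vesicle list 9.93 and 8.5. The lowest levels on the 5 arrays were 8.79 and 8.5. All 8 testis genes tested had lower means in HH than in LH (median -0.41) and all 5 epididymis and seminal vesicle genes higher ones (0.61). None was called, and none had an unadjusted p under 0.05. Skeletal muscle transcripts were uneven as well. The mean log2 level of the muscle list was 6.53, 7.12 and 13.52 in HH (lowest, median, highest) and 6.63, 6.71 and 9.51 in LH. All 6 muscle genes tested had higher means in HH than in LH (median 1.32) and than in HL (median 1.06, 0.99 without the low arrays), with 0 called. At an unadjusted p under 0.05 were 0 of 6 against 12.5% of all probes in HH against LH, and 1 of 6 against 16.9% in HH against HL. The part of muscle transcripts in the caveola values was not tested. The response to the post-weaning diet did not pass a test of its difference between maternal diets: the interaction was -0.05 to 0.28 for the 7 probes and 0 were called (adjusted p 0.954 to 0.991, limma, 0.0% of all probes, 0 of 7 at an unadjusted p under 0.05 against 4.36% of all). Without the arrays of low correlation it was -0.22 to 0.2, with 0 called (adjusted p 0.485 to 0.971, limma) and 0 of 7 at an unadjusted p under 0.05 against 11.9% of all. With the cage as a fixed block it was 0.44 to 0.64 (adjusted p 0.745 to 0.799, limma), and -0.12 to 0.21 with those arrays left out as well, again with 0 called in either fit.

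**Figure D2:**
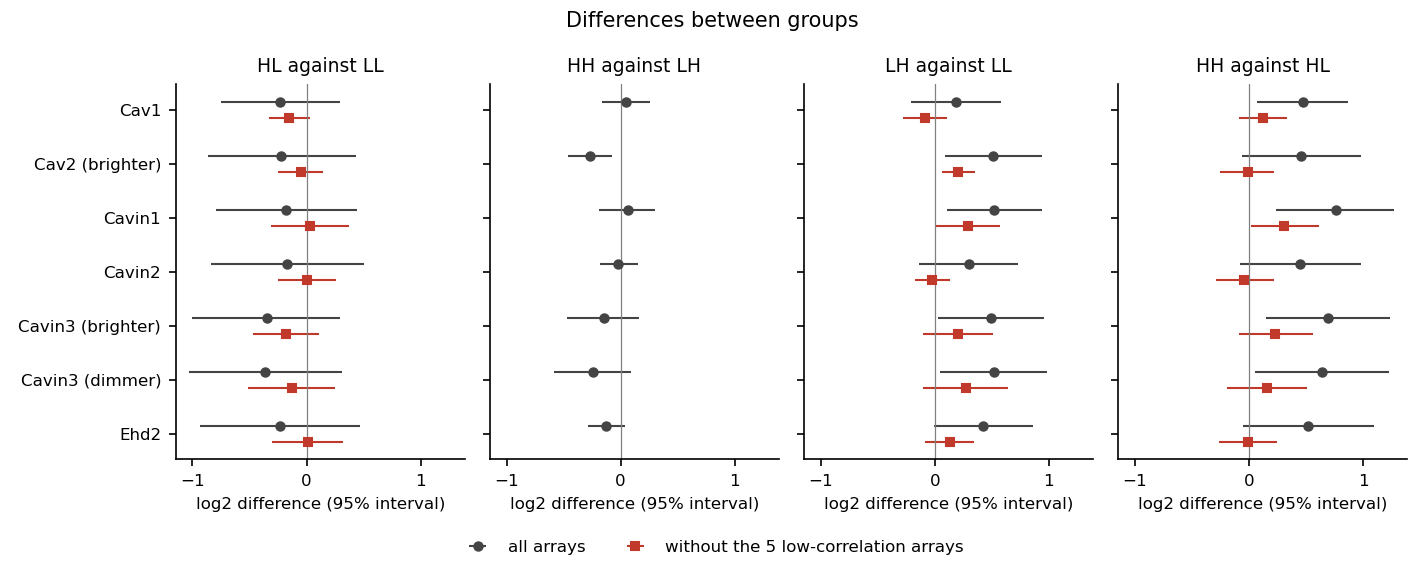
Log2 differences of the 7 caveola probes in the 4 comparisons, with 95% intervals, over all arrays (grey) and without the 5 arrays of low correlation (red, HH against LH has none). The post-weaning differences of 0.19 to 0.76 over all arrays fall to -0.09 to 0.31 without them.

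Expansion of the pad was read in 2 ways, as body weight and as transcripts known to follow fat pad growth in mice. The labels name the second of their body weights for weaning, yet they hold a separate weight at 3 weeks, the weaning age of the methods, of 7.82 to 13.36 g, so the second, of 20.38 to 34.06 g, must have been taken later at an age the labels do not give. It had medians of 24.6 g in LL, 30.6 g in LH, 24.7 g in HL and 30.0 g in HH, so weight separated the post-weaning diets and only its spread within groups was used. Over 40 animals the slopes on weight were -0.08 to -0.02 log2 units per gram and 0 of 7 probes were called (limma, adjusted p 0.794 to 0.93, 0.0% of all probes called, 0 of 7 at an unadjusted p under 0.05 against 6.21% of all). Without the 5 arrays they were -0.02 to 0.04, again with 0 called (0.0% of all probes) and 0 at an unadjusted p under 0.05 against 6.68% of all.

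The transcript measures were Lep, which codes for leptin and rises with fat cell size, Mest, an imprinted gene that marks fat storage, and Sfrp5, a secreted Wnt inhibitor. In HH against HL, Mest was higher by 1.92 (SE 0.34, adjusted p = 0.0125, limma) and Sfrp5 by 1.51 (adjusted p = 0.00402), and also passed without the arrays of low correlation (1.5, adjusted p = 0.0224 and 1.27, adjusted p = 0.0132). The list of 9 genes linked to adiposity had 5 called higher and 0 lower there, where 0.512% of all probes were called. This list was chosen with earlier results of these arrays known, so its counts and medians describe it and are not independent support. They were Slc5a7, Trp53inp2 and Peg3 beside Mest and Sfrp5, and the list median was 0.96 against 0.02 over all probes. Without the low arrays 4 of the 9 were called (1.36% of all probes) and the median was 0.83, Peg3 being the one lost (0.83, adjusted p = 0.0597, limma). Lep differed by 0.96 and was not called (adjusted p = 0.163, limma), and by 0.48 without the low arrays (adjusted p = 0.374). The caveola probes had a median of 0.52 in that comparison, 0.12 without the low arrays, and none was called. In LH against LL the transcript measures differed less. Mest was 1.08 higher (adjusted p = 0.339, limma), Sfrp5 0.51 (0.394) and Lep 0.6 (0.428), and none was called. Without the low arrays they were 0.68, 0.37 and 0.24 higher. Of the 9 genes linked to adiposity only Peg3 was called there (0.218% of all probes), and 0 were without the low arrays (0.421%).

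Within groups all 7 probes rose with Lep. Over 40 animals, with group means removed, they gained 0.47 to 0.69 log2 units per log2 unit of Lep, and 7 of 7 were called (adjusted p from 2.57e-09 to 1.22e-05, limma), where 48.6% of all probes were called and 33.6% were called rising. The 5 arrays had the lowest Lep, 1816 to 4635 units against 4843 to 20988. Without them the slopes were 0.15 to 0.48, 4 of 7 probes were called, all rising, and 4.13% of all probes were called (3.29% rising). Cavin3 kept the steepest slopes, 0.48 (SE 0.1, interval 0.27 to 0.68, adjusted p = 0.00408, limma) at its dimmer and 0.4 (SE 0.09, 0.22 to 0.58, adjusted p = 0.00719) at its brighter probe. Cavin2 rose by 0.25 (SE 0.06, adjusted p = 0.0103) and Cav2 by 0.2 (SE 0.06, adjusted p = 0.0452). Cav1 (0.16, interval 0.03 to 0.29), Cavin1 (0.16, -0.04 to 0.36) and Ehd2 (0.15, -0.01 to 0.31) were not called.

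Single cages decided some of these 4 calls. With 1 cage left out at a time on the 35 arrays, the brighter Cavin3 slope stayed between 0.33 and 0.45 and was called in 10 of 12 fits, and the dimmer between 0.36 and 0.56, in 10 of 12. Both lost the call without cage 4 (adjusted p = 0.0913 and 0.0742, limma) or cage 9 (0.125 and 0.0647), which hold 5 of the LH animals. The LH animals of cage 4 read 15564 and 20988 units at Lep and had the highest Cavin3 of the group, 7953 and 8924 units at the brighter probe. Those of cage 9 had the lowest Lep of the group, 7171, 5461 and 8015 units, and read 5284, 4214 and 3732 at Cavin3. Cavin2 was called in 11 of 12 fits (slope 0.19 to 0.27, not without cage 9) and Cav2 in 4 of 12 (0.12 to 0.28). In the 20 HF fed animals alone 0 of 7 were called (slopes of 0.02 to 0.41, 4.02% of all probes called, 4 of 7 at an unadjusted p under 0.05 against 20.7% of all), with adjusted p = 0.0939 (limma) and an interval of 0.12 to 0.7 for the dimmer Cavin3 probe. Both sides of a slope come from the same array, so what moves a whole array moves both.

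**Figure D3:**
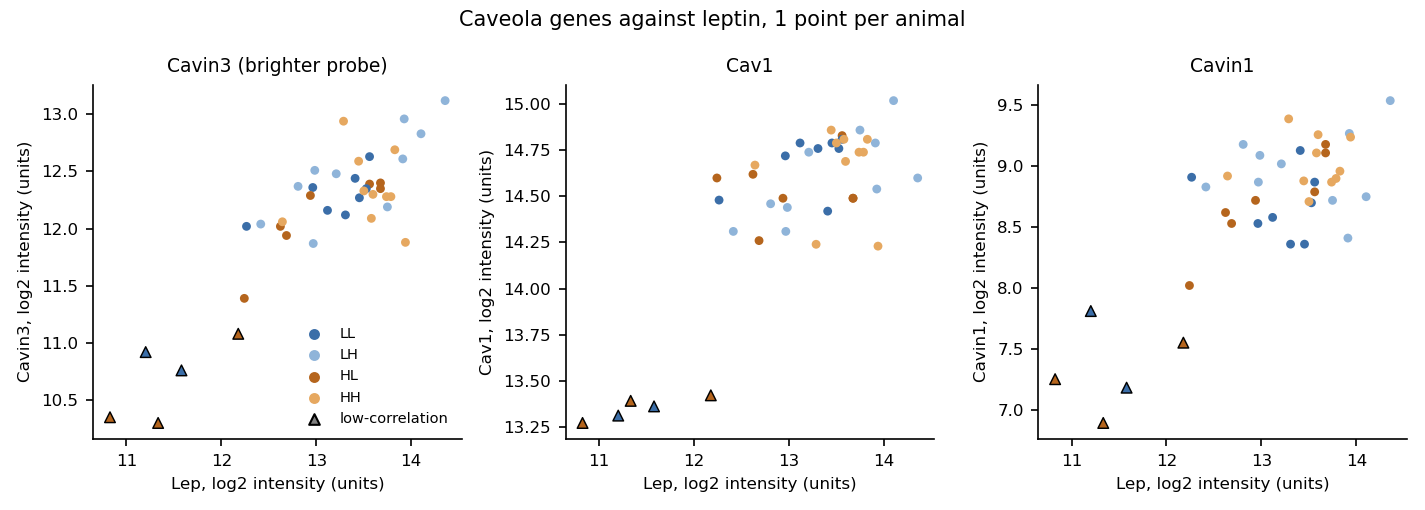
Log2 intensity of Cavin3 (brighter probe), Cav1 and Cavin1 against that of Lep, 1 point per animal, coloured by group, with triangles for the 5 arrays of low correlation. Over the other 35 animals Cavin3 climbs with Lep (slope within groups 0.4), while the slopes of Cav1 and Cavin1 are 0.16.

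The slopes on Mest were read in the same way. Over 40 animals 7 of 7 probes rose with Mest, by 0.21 to 0.38 (44.0% of all probes called, 28.5% rising, limma). On the 35 arrays only Cav1 was called, with a slope of 0.16 (SE 0.03, interval 0.09 to 0.22, adjusted p = 0.00187, limma), where 26.9% of all probes were called (13.1% rising), and it was called in 12 of 12 fits with 1 cage left out (0.14 to 0.18). In HF fed animals alone Cav1 had a slope of 0.18 (adjusted p = 0.0321, limma, 5.14% of all probes called) and was again the 1 of 7 called. Over 40 arrays the slope of Cav1 had been 0.33. On the 35 arrays Cavin3 had slopes of 0.14 (interval 0.01 to 0.27, adjusted p = 0.0882, limma) at its brighter and 0.11 (-0.04 to 0.26) at its dimmer probe, while Cavin1 (-0.05, interval -0.17 to 0.07) and Ehd2 (-0.03, -0.13 to 0.07) lay near 0. As a share, 1 of 7 is close to that of all probes called rising. The difference between the slopes of Cav1 and the other members was not tested.

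With Sfrp5, 6 of 7 probes were called over 40 animals (slopes 0.34 to 0.59, 7.54% of all probes called, 6.27% rising), Cav1 being the exception (0.34, adjusted p = 0.0553, limma). Without the 5 arrays the slopes were 0.07 to 0.28, 0 of 7 were called and 0.0491% of all probes were (0.0421% rising), with 3 of 7 at an unadjusted p under 0.05 against 7.84% of all. Sfrp5 was dim on many LF arrays, 91.6 to 128 units on the 5 and 108 to 679 on the others, so part of its range lay near background.

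**Figure D4:**
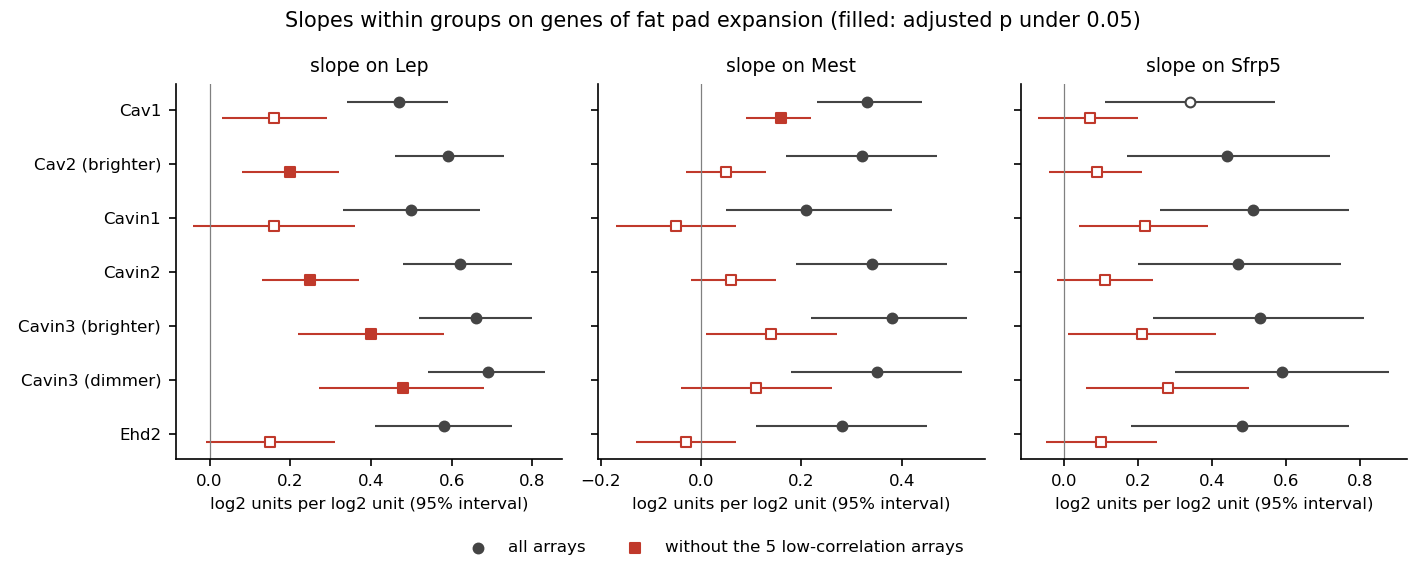
Slopes of the 7 caveola probes on Lep, Mest and Sfrp5 within groups (log2 units per log2 unit) with 95% intervals, over 40 arrays and over the 35 without low correlation, filled where the adjusted p was under 0.05. On 35 arrays the filled points are 4 on Lep, 1 on Mest (Cav1) and 0 on Sfrp5.

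Members were compared with each other through the correlation of their log2 values after group means were removed, as a description, with 1 probe per gene. Over 40 arrays all 15 pairs were positive, from 0.64 (Cav1 with Cavin1) to 0.94, with a median of 0.85. Over the 35 arrays the pairs ran from -0.42 to 0.78 with a median of 0.36, and 2 were below 0. Cav1 with Cavin1 had -0.42 and Cav1 with Ehd2 -0.16, and the caveolin pair Cav1 and Cav2 had 0.09. Cavin1 and Ehd2, the coat protein and the neck ATPase, had the highest, 0.78. Over 40 arrays Ehd2 was the gene nearest to Cavin1 among 9787, and over the 35 it was at rank 12. The points share arrays, the normalization and the cages.

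**Figure D5:**
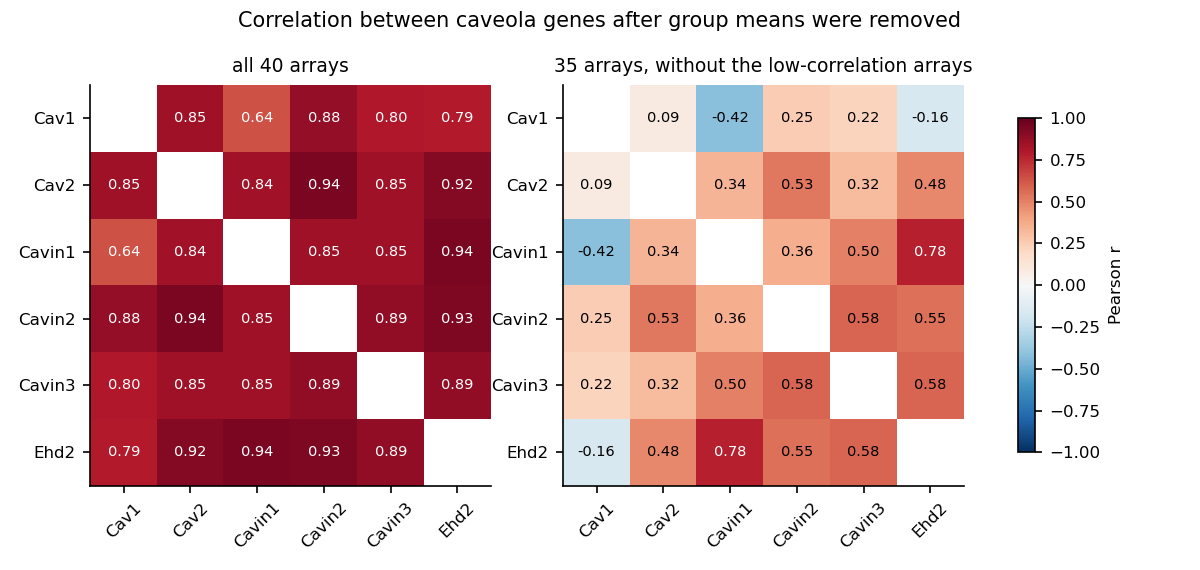
Pearson correlation of log2 intensity between the 6 genes after removal of group means, over 40 arrays (left) and over the 35 without low correlation (right). The left panel spans 0.64 to 0.94, and the right one spans -0.42 (Cav1 with Cavin1) to 0.78 (Cavin1 with Ehd2).

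Over 40 arrays the 8 genes most like Cav1 were Mfng (0.946), a fringe glycosyltransferase of the Notch pathway, Adipoq (0.943), Npr2, Il16, Celf2, the macrophage receptor Cd163, Kctd2 and the endothelial phosphatase gene Ptprb (0.931). Those most like Cavin1, members aside, were the liver X receptor gene Nr1h3 (0.93), Hebp1, Fgfrl1, Hsd17b4, Ankrd40, C030006K11Rik, the endothelial nitric oxide synthase gene Nos3 and Ece1 (0.915). No gene stood on both lists. Over the 35 arrays without low correlation, none of these genes was among the 8 most like the same member. Both lists therefore depend on the arrays of low correlation. The correlation with the fat cell list also fell, from 0.89 over 40 arrays to 0.21 over 35 for Cav1, and from 0.85 to 0.36 for Cavin1. Over the 35 arrays Cavin3 was nearest to Vim (0.894) and Col15a1 (0.892), genes of the connective tissue skeleton and matrix, which were looked at after its slope had been seen.

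Both fat cells and endothelium carry caveolae, so marker lists were set beside the members. On the 35 arrays the correlation with the endothelial list was 0.59 for Ehd2, 0.56 for Cavin1, 0.49 for Cav2 and 0.39 for Cavin2. It was 0.06 for Cavin3 at its brighter probe (0.28 at its dimmer) and -0.28 for Cav1. With the fat cell list it was 0.59 for Ehd2, 0.57 for Cavin2, 0.41 for Cavin3 (dimmer probe 0.38), 0.36 for Cavin1, 0.21 for Cav1 and 0.18 for Cav2. Cavin3 had 0.53 with the fibroblast list (dimmer probe 0.35) and Cav1 0.49 with the macrophage list. With the smooth muscle and pericyte list Ehd2 had -0.55, Cavin1 and Cavin2 -0.47, Cavin3 -0.32 (dimmer probe -0.35), Cav2 -0.2 and Cav1 0.02. The mean log2 level of the endothelial list lay between 8.57 and 9.88 in LL, 9.67 and 9.88 in LH, 8.3 and 9.83 in HL, and 9.42 and 9.99 in HH. The endothelial adhesion gene Pecam1 was 0.43 higher in HH than in HL without the low arrays (adjusted p = 0.0818, limma) and 0.4 higher in LH than in LL (adjusted p = 0.0661), beside Cavin1 differences of 0.31 and 0.29. Cdh5, the cadherin of endothelial junctions, differed by 0.19 and 0.26. Pecam1 was the highest of the 11 endothelial genes tested in both comparisons. Their medians without the low arrays were 0.15 in HH against HL (-0.2 to 0.43) and 0.09 in LH against LL (-0.12 to 0.4). In each, 9 of 11 had higher means, beside 46.3% and 54.3% of all probes, and 0 were called. The part of vessel content in the Cavin1 values was not tested.

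Genes that work with caveolae were counted beside the members. Of 12 partners (paralogs, EHD and pacsin proteins that shape the neck, flotillins) 9 were tested, and of 12 proteins that reside in or signal from caveolae 10 were. In each of the 4 comparisons 0 of these 19 were called (limma), 0 to 2 partners and 0 to 3 clients had an unadjusted p under 0.05 where 1.08% to 16.9% of all probes had one, and the list medians were -0.06 to 0.22 against -0.02 to 0.03 over all probes. Without the low arrays 1 was called, Slc2a4, the insulin-responsive glucose transporter, lower in HH than in HL, where 1.36% of all probes were called. Pacsin2, which bends the caveolar neck, read 150 to 326 units and differed by -0.08 to 0.08. Cd36, a fatty acid transporter of caveolae, spread from 78.3 to 1296 units and was 1.09 higher in HH than in HL (SE 0.42, adjusted p = 0.235, limma), and 0.65 higher without the low arrays (SE 0.43, adjusted p = 0.613). The Insr probe was above background on 1 array and was not tested. On the 35 arrays 1 of 9 partners, the flotillin gene Flot2, rose with Lep, and 0 of the 10 clients were called, where 4.13% of all probes were. At an unadjusted p under 0.05 were 3 partners and 1 client, against 20.7% of all probes. With Mest on these arrays Cd36 rose, and Adcy6 and Pacsin3 fell, 3 of 19 where 26.9% of all probes were called.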

How the data were processed

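RNA of 40 gonadal fat pads was labelled and hybridised to 25697-probe mouse bead arrays. The deposited table holds linear intensity values that the authors quantile-normalized in BeadStudio (no version given) without background subtraction, so the folds of dim probes are understated and transcripts of another tissue that are bright on an array take ranks from others. Values ran from 47.5 to 43659 units and were taken as log2. The number of arrays limits the precision.

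The platform annotation gave 23978 probes 1 gene symbol and left 1719 unnamed (23962 matched by gene identifier). Probes above the 95th percentile of 1302 odorant and vomeronasal receptor probes on at least 20 of 40 arrays were kept (14244, of which 48 were such receptor probes), and 11453 were left out. Of 780 array pairs 0 were identical. Each comparison was fitted on its 20 arrays, and the interaction and slopes (group means plus the covariate) on 40, with limma 3.58.1 (lmFit, eBayes with trend, two-sided) in R 4.3.3, and p-values were Benjamini-Hochberg adjusted over all probes and called under 0.05. Cages were ignored there. In the maternal comparisons no cage held both maternal diets, so any likeness among animals of a cage would make the p-values too low. In the post-weaning comparisons and the slopes, leaving out the cage can move p-values either way. With the cage as a fixed block the probes called rose from 73 to 472 in HH against HL. They fell from 31 to 5 in LH against LL. Intervals used the moderated degrees of freedom. Python 3.11.15, numpy 2.4.6, pandas 2.3.3 and matplotlib 3.10.9 were used for the rest.

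Named were all caveola probes, called members of the partner, client and adiposity lists, Pacsin2, Cd36, Insr, Mest, Sfrp5, Lep, Adipoq, Plin1, Pecam1 and Cdh5, and the 8 genes most like Cav1 and Cavin1. Genes with several probes were represented by the brightest. Slc2a4, Flot2, Adcy6, Pacsin3, Vim and Col15a1 were added after their values were seen. Members, lists and rules were chosen with earlier results of these data known. The procedure was tested on simulated data. Alternatives covered cages, low-correlation arrays, covariates, scaling, filters, variance models and diet subsets.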

Additional observations from a re-analysis of the deposited data

Results flagged for a closer look

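Gaps were examined in 116 groups of 10 values, and in 8 the gap between the highest or lowest animal and the next, over the group's range, was above Dixon's 95% critical value, which chance passes in about 1 group in 20. None of the 28 groups of caveola probes was among them (0 of 28). In LL and HL the arrays of low correlation lay together in these probes, and a gap next to 1 animal can miss them. Lep in HH was lowest in animal 6 at 6398 units, with the next at 9996. Pecam1 in HH was lowest in animal 7 at 750 units, with the next at 1070. The same animal had the highest smooth muscle and pericyte list of HH at 10.21 (mean log2, next 9.09), and animal 2 that of LL at 9.9 (next 8.96). The testis list in LL was highest in animal 4 at 13.12 (next 8.93) and the intestine list in HL in animal 8 at 11.55 (next 6.95), both among the 5 arrays of low correlation. The skeletal muscle list was highest in animal 5 of LH at 9.51 (next 6.9) and in animal 10 of HL at 8.75 (next 7.44).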

How the results depend on the processing

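No caveola probe was called in the 4 comparisons, the interaction or the weight slope under any alternative run, except in HH against HL with the cage as a fixed block (2). Of the slope on Mest, 7 caveola probes were called, and the count fell to 1 without the arrays of low correlation (also with the cage as a random block), 4 with the testis and epididymis lists as covariates, 3 with array weights, 1 in HF fed animals, 1 with the fat cell list as a covariate and 0 in LF fed animals without the low arrays, and it ran from 1 to 7 with cages left out. Of all 14241 probes, 6267 were called, and 3835 without the low arrays (3642 with the cage as a random block). The count was 2628 with the testis and epididymis covariates, 5753 with array weights, 732 in HF fed animals and 2919 with the fat cell covariate. In LF fed animals without the low arrays 1 probe was called. Of the slope on Sfrp5, 6 were called, and 0 without the low arrays (also with the cage as a random block), with the testis and epididymis covariates, with array weights, in HF fed animals, with the fat cell covariate and in LF fed animals without the low arrays, 2 with an offset of 50 units or no filter, and 0 to 7 with cages left out (0 without cage 4, 6 or 23, 2 without cage 20, 3 without cage 8 or 10). Of all 14243 probes, 1074 were called, and 7 without the low arrays (also with the cage as a random block). The count was 34 with the testis and epididymis covariates, 79 with array weights, 1 in HF fed animals and 22 with the fat cell covariate. In LF fed animals without the low arrays 0 were called. Of the slope on Lep, 7 were called, and 4 without the low arrays (also with the cage as a random block), 3 with the fat cell covariate, 0 in HF fed animals and 0 in LF fed animals without the low arrays, and 1 to 7 with cages left out, the lower values all on the 35 arrays. Of all 14243 probes, 6920 were called, 588 without the low arrays (426 with the cage as a random block) and 243 with the fat cell covariate. In HF fed animals 572 were called, and 5 in LF fed animals without the low arrays. The cause of these losses was not tested.

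The slope on Mest turned for Cavin1 without the low arrays (-0.05, also with the cage as a random block), with array weights (-0.02), in HF fed animals (-0.04), with the fat cell covariate (-0.06) and in LF fed animals without the low arrays (-0.07). It turned for Ehd2 to -0.03 without the low arrays (also with the cage as a random block), -0.04 with the fat cell covariate and -0.11 in LF fed animals without the low arrays, where Cav2 had -0.04 and the dimmer Cavin3 probe -0.0. With cages left out, on 40 or on 35 arrays, Cavin1 ran from -0.1 to 0.27 and Ehd2 from -0.06 to 0.35, with the values below 0 all on the 35 arrays.

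Counts over all probes moved as well. HH against HL had 73 called, 472 with the cage as a fixed block, 601 with array weights, 194 without the low arrays and 2 over cage means. LH against LL had 31, 297 with array weights, 60 without the low arrays, 5 with the fixed block and 0 over cage means. HH against LH had 0, 157 with array weights and 1001 with the fat cell covariate, and the interaction 0 and 1905 with array weights. The maternal comparisons gave no value with the cage as a fixed block, since each cage had 1 maternal diet. No paired analysis was possible because the labels carry no replicate numbers that would pair single animals, and animals of the same cage were compared through the cage instead. The fits with the fat cell covariate, of LF fed animals without the low arrays, and those that combine the missing low arrays with cages were chosen after seeing the data.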
